A study of Arabidopsis thaliana with 6 samples.

Results

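The SAUR (small auxin-up RNA) genes of Arabidopsis thaliana were taken from a whole-genome expression table as every row whose gene name starts with SAUR, or whose description contains "SAUR" or "Auxin responsive protein". The rule found 84 of the 32962 rows. Of these, 78 are loci with a SAUR number (25 named so in the table, and 53 given their symbol through RefSeq), and 6 carry none. The 6 others are 3 long noncoding RNAs (AT1G05557, AT1G06257 and AT5G02865), a transmembrane protein gene (AT4G00883) and AT4G38820, each of which overlaps or lies beside a SAUR locus, and ADK2, an adenosine kinase gene that the table describes by its overlapping neighbour SAUR44. The members lie on all 5 chromosomes, with 22, 11, 14, 20 and 17 on chromosomes 1 to 5. Of the 78 SAUR loci, 72 have a single exon, and the coding length runs from 261 to 573 bases with a median of 363.

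Messenger RNA was sequenced from samples labelled as seedlings, at 25 days of age, kept at 25 °C in days of 16 h light and nights of 8 h. The 3 control libraries are wild type (Col-0), and the 3 others are EsANAC029-OE, which overexpresses a NAC transcription factor named EsANAC029 from Elymus sibiricus, a perennial grass. The promoter that drives EsANAC029, the number of independent lines and whether plants were pooled are not stated in the labels, and the foreign transcript itself was not analysed here. The labels do not say that the 3 replicates of a group were separate plantings, so p-values measure only the spread between these samples.

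SAUR genes are among the earliest genes that auxin induces, and their transcripts and proteins are short-lived. SAUR proteins of the SAUR19 group bind and inhibit phosphatases of the PP2C.D clade, which keeps plasma membrane proton pumps (AHA proteins) phosphorylated and active, so that the cell wall is acidified and the cell expands. Other members act apart from growth by auxin alone: SAUR36, also called SAG201, promotes leaf senescence, and the SAUR76 to SAUR78 proteins interact with ethylene receptors. Auxin response factors (ARF), PIF factors and the brassinosteroid factors BZR1 and BES1 are known activators of SAUR genes. In EsANAC029-OE the tandem members SAUR20, SAUR21, SAUR63, SAUR64 and SAUR66 fell, and SAUR30 and SAUR72 rose.

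SAUR19 to SAUR24 stand next to each other on chromosome 5 and have nearly the same coding sequence, and their transcripts were among the members with the lowest levels in EsANAC029-OE relative to wild type. A stretch of 120 coding bases of each of the 6 genes, coding bases 109 to 228 in SAUR21 and 115 to 234 in the others, is shown to make visible how alike copies are that had to be told apart by their reads. It is the gap-free stretch of that length with the most differences. The sequences were read 5′ to 3′ on the coding strand from the RefSeq TAIR10.1 assembly, and capitals mark the 25 positions of the stretch at which at least 1 copy differs from the rest.
SAUR19: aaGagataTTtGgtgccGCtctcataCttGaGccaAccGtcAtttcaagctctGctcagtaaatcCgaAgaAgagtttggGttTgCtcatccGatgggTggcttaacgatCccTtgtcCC
SAUR20: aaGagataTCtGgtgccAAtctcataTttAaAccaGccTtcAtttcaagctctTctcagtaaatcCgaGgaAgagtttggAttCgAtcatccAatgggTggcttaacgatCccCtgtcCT
SAUR21: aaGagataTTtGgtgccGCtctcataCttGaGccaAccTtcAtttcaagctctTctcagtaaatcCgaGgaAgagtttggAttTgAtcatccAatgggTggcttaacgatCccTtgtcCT
SAUR22: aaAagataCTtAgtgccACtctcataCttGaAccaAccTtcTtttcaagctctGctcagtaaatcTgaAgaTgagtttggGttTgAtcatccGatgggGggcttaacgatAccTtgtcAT
SAUR23: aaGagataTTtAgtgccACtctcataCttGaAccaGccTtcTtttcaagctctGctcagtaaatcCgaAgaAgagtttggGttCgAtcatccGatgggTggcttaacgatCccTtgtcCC
SAUR24: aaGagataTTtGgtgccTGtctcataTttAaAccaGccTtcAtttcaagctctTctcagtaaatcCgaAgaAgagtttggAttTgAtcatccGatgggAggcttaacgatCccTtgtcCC
Over the whole alignment 53 of 276 columns vary, 9 of them with a gap, and the identity of pairs of coding sequences is 87.7% to 95.2% with a median of 91.2%. Every window of 150 bases, the read length, in these 6 genes occurs once in the genome. Of the 78 SAUR loci, 74 have unique windows throughout, and SAUR63 (90.1% of windows unique), SAUR67 (91.8%), SAUR75 (97.4%) and SAUR62 (98.1%) do not, so reads of these 4 could be split between copies.

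The 300 bases before the annotated gene start are shown for the 7 members that were called as changed, because some motifs there are in members that fell and not in those that rose. Capitals mark CACATG or its reverse complement CATGTG, a variant of the E-box that PIF factors can bind. The windows lie on TAIR10.1 at chr1:10320711-10321010 (plus strand, SAUR66), chr1:10305109-10305408 (minus strand, SAUR63), chr1:10306596-10306895 (minus strand, SAUR64), chr5:5968052-5968351 (plus strand, SAUR21), chr5:5966786-5967085 (minus strand, SAUR20), chr5:21771511-21771810 (plus strand, SAUR30) and chr3:4079628-4079927 (minus strand, SAUR72), each written along the gene's own strand.
SAUR66: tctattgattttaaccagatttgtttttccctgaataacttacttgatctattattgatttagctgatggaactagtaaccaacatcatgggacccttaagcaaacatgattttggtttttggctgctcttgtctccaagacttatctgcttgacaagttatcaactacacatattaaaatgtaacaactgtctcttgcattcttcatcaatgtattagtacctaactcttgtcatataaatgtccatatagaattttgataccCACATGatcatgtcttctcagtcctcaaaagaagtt
SAUR63: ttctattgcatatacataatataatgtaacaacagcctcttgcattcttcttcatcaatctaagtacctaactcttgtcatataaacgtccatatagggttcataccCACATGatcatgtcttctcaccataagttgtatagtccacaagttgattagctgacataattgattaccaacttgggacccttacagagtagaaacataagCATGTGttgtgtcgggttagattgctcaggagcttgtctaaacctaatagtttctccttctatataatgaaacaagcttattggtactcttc
SAUR64: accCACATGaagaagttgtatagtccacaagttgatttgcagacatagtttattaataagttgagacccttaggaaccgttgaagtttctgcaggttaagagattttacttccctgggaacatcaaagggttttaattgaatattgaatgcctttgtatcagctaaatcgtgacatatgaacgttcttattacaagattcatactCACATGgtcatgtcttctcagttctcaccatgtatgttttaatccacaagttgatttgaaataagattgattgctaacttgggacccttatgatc
SAUR21: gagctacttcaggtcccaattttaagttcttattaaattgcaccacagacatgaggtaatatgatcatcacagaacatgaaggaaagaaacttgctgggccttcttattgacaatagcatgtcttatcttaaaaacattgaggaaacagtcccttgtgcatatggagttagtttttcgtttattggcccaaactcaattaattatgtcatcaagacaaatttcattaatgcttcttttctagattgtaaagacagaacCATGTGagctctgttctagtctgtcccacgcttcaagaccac
SAUR20: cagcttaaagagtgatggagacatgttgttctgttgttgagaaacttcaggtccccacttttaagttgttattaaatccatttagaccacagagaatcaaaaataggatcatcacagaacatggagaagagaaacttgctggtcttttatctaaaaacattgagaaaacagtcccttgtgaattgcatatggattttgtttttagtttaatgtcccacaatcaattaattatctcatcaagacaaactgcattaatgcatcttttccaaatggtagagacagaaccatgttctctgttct
SAUR30: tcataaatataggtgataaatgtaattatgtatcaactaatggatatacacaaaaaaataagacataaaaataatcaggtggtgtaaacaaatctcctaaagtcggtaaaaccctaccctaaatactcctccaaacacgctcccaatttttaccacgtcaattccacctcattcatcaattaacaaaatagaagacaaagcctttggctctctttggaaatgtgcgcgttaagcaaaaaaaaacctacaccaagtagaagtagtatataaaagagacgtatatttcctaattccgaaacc
SAUR72: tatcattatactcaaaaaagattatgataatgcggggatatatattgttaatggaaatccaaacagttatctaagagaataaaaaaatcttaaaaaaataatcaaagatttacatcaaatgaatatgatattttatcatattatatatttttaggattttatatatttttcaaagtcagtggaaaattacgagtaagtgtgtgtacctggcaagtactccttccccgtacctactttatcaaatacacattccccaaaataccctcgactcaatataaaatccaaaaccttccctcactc
CACATG stands at position -36 of SAUR66, at -193 and -92 of SAUR63, at -297 and -95 of SAUR64 and at -42 of SAUR21, counted back from the gene start. It is not in these windows of SAUR20, SAUR30 or SAUR72. TGTCTC, an auxin response element, is in those of SAUR66 and SAUR20 and not in those of the other called members. SAUR63 and SAUR66, of the same cluster, share a run of 25 identical bases that holds the motif, atacccacatgatcatgtcttctca, beginning at -198 and -41. SAUR63 and SAUR64 share an equally long run without it, aagttgtatagtccacaagttgatt, beginning at -169 and -288, so shared runs are not limited to the motif.

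Each gene was given a level in FPKM, a read count divided by the length of the gene and by the scaled size of its library. A member was tested when it reached 1 FPKM in at least 3 libraries, which 41 of the 84 did, 40 SAUR loci and ADK2. Of the 43 not tested, 10 had no read in any library, among them SAUR40, and 33 had reads. Among these 33, 8 reached 1 FPKM in 1 or 2 libraries, with a highest value of 5.30 FPKM (SAUR51 in EsANAC029-OE replicate 2). SAUR51 stood at 0.375, 0.516 and 0.581 FPKM in the wild-type libraries, against 0.653, 5.30 and 3.8 FPKM in EsANAC029-OE.

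Of the 41 tested members 7 were called (limma, Benjamini-Hochberg adjusted p under 0.05), against a background of 7.89% of 17221 tested genes. SAUR66, SAUR64, SAUR63, SAUR21 and SAUR20 fell in EsANAC029-OE, where 3.58% of all genes were called lower. SAUR30 and SAUR72 rose, where 4.31% of all genes were called higher. With scaling by library size alone, 4 members rose and 4 fell (backgrounds 15.9% and 2.19%, or 18.1% in all). That scaling moved the median log2 fold change of all tested genes from -0.01 to 0.31, and the median of the tested members from -1.13 to -0.90.

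The 3 wild-type values lay above all 3 EsANAC029-OE values in 19 tested members (background 20.3% of all tested genes), below them in 7 (background 19.6%), and the groups overlapped in 15. SAUR19, SAUR63, SAUR28 and SAUR15 reached 1 FPKM only in wild type and SAUR36 only in EsANAC029-OE, so their passing the filter already needed a difference. Of the 36 members that passed through both groups, 15 were lower and 6 higher with no overlap, and 4 fell and 2 rose. An unadjusted p under 0.05 was found for 24 of the 41 (28.3% of all tested genes), 19 of them lower and 5 higher. The log2 fold change, on the log2(FPKM + 1) scale, was negative in 29 tested members.

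Among the 6 libraries EsANAC029-OE replicate 1 stood apart. Over all tested genes, which are not independent replicates, its Pearson correlation with the wild-type libraries was 0.691 to 0.734, against 0.857 to 0.899 for EsANAC029-OE replicates 2 and 3, while wild-type libraries correlated at 0.967 to 0.977 with each other. It was the lowest of the 6 libraries in 29 of 41 tested members (33.5% of all tested genes) and the highest in 9 (35.6%), and it held no read of 11 of them, including 5 of SAUR19 to SAUR24. Against the wild-type mean, the median log2 difference of the tested members came to -1.78, -0.68 and -0.53 in EsANAC029-OE replicates 1 to 3. Once replicate 1 was left out, all 7 calls stood among 15 of 40 tested members called (background 16.4%): SAUR71, SAUR53, SAUR59 and SAUR52 then also rose (6 in all, background 6.85%), and SAUR22, SAUR24, SAUR67 and SAUR31 also fell (9 in all, background 9.51%). Without wild type replicate 1, 2 or 3, or EsANAC029-OE replicate 2, no member was called by limma. In these 4 fits 0.707%, 0.921%, 0.348% and 1.06% of all tested genes were called. Limma-voom on recovered reads called SAUR30 and SAUR72 alone, so 2 rose and 0 fell (background 4.77%, with 2.64% higher and 2.13% lower).

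The libraries also differed in markers of leaf state. The senescence markers were chosen because the EsANAC029-OE libraries were already known to differ in them, so their difference is no separate finding. The summed level of 5 senescence markers was 150, 173 and 137 FPKM in the wild-type libraries, against 1600, 715 and 572 FPKM in EsANAC029-OE. SAG13 and SAG21 rose, and SEN1, another of the 5, did not go with them, at 104.5, 66.8 and 63.9 FPKM against 112, 45.7 and 61.4 FPKM. SAG12, a protease gene of late senescence, was listed at 0 in every wild-type library and in EsANAC029-OE replicate 3, and stood at 230 and 132.5 FPKM in replicates 1 and 2. The summed level of 3 photosynthesis markers was 17800 to 22220 FPKM in the wild-type libraries, against 1541, 6076 and 10170 FPKM in EsANAC029-OE. No flower or pollen marker exceeded 0.538 FPKM and no root marker 1.47 FPKM in any library, so root markers were near 0 in samples labelled as seedlings. The part of these differences in the SAUR results was not tested. In bulk RNA, fewer cells that express a gene and less of its RNA in each cell cannot be told apart.

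**Figure D1:**
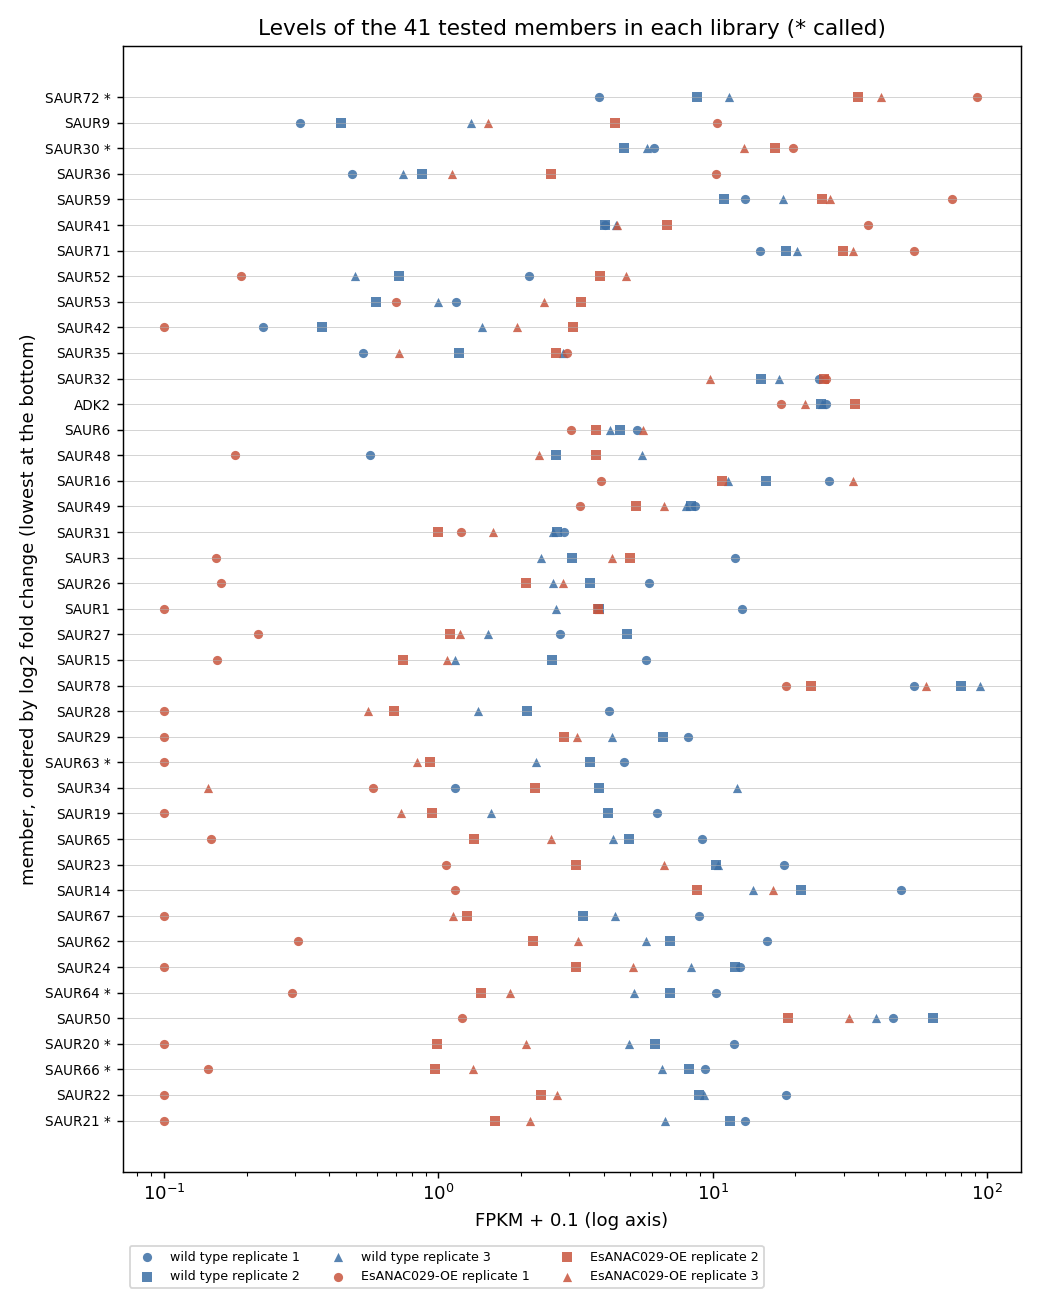
Level of each of the 41 tested members (rows, ordered by log2 fold change) in each library, as FPKM + 0.1 on a log axis; blue points are the 3 wild-type and red points the 3 EsANAC029-OE libraries, and an asterisk marks the 7 called members. In most lower rows the red circle of EsANAC029-OE replicate 1 lies farthest left, and in the rows of SAUR72, SAUR30, SAUR59 and SAUR71 all red points lie right of the blue ones.

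The growth-promoting SAUR19 to SAUR24 copies were low in each EsANAC029-OE library. SAUR21 (AT5G18030, TAIR10 chromosome 5, 5968352 to 5969190) stood at 13.0, 11.5 and 6.59 FPKM in the wild-type libraries, against 0, 1.51 and 2.06 FPKM in EsANAC029-OE, where a count of 0 allows up to 0.156 FPKM (3 reads) in replicate 1. It fell by 2.48 on the log2 scale (SE 0.48, limma adjusted p = 0.0342). SAUR20 (AT5G18020, 5966183 to 5966785) had 11.9, 6.04 and 4.86 FPKM in wild type against 0, 0.891 and 1.99 FPKM, and fell by 2.18 (SE 0.48, adjusted p = 0.0466). In both genes the 2 groups did not overlap.

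The other 4 copies of the group had the same order of groups without a call, an order found in 20.3% of all tested genes. Of these 4, SAUR19 reached 1 FPKM only in wild type, so its passing the filter already needed a difference. SAUR22 was at 18.4, 8.83 and 9.22 FPKM in wild type against 0, 2.26 and 2.61 FPKM (log2 fold change -2.46, SE 0.56, limma adjusted p = 0.0501). SAUR24 was at 12.5, 12 and 8.23 FPKM against 0, 3.07 and 5.03 FPKM (-2.01, adjusted p = 0.111). SAUR23 was at 18, 10.2 and 10.3 FPKM against 0.968, 3.08 and 6.52 FPKM (-1.77, adjusted p = 0.0838). SAUR19, the copy for which the phosphatase inhibition is best known, was at 6.17, 4.06 and 1.46 FPKM against 0, 0.849 and 0.631 FPKM (-1.63, adjusted p = 0.0782). SAUR23 was thus the only copy of the 6 with a read in EsANAC029-OE replicate 1, where 18 reads were assigned to it.

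Summed over the 6 copies, which depends little on how reads were split between them, the level was 80, 52.6 and 40.7 FPKM in the wild-type libraries, against 0.968, 11.7 and 18.9 FPKM in EsANAC029-OE, from 1162, 713 and 549 reads against 18, 220 and 309. All 3 wild-type sums lay above all 3 others, and the wild-type mean of 57.8 ± 20.2 FPKM was 5.50 times the EsANAC029-OE mean of 10.5 ± 9.0 FPKM (SD, n = 3 each). The log2 fold change of the sum was -2.84 (SE 0.85) and was not called (limma adjusted p = 0.0930). Without EsANAC029-OE replicate 1 the sum fell by 1.84 (SE 0.33, adjusted p = 0.0230).

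The cluster SAUR61 to SAUR68 on chromosome 1 held 3 of the 5 members that fell (3.58% of all tested genes were called lower). Of these 3, SAUR63 reached 1 FPKM only in wild type, so its passing the filter already needed a difference. SAUR66 (AT1G29500, 10321011 to 10321978) had the smallest adjusted p of the family. It was at 9.31, 8.08 and 6.44 FPKM in the wild-type libraries, against 0.045, 0.872 and 1.24 FPKM in EsANAC029-OE, and fell by 2.44 (SE 0.32, limma adjusted p = 0.0162). SAUR64 (AT1G29450, 10305553 to 10306595) had 10.1, 6.86 and 5.07 FPKM against 0.194, 1.33 and 1.73 FPKM, and fell by 2.04 (SE 0.38, adjusted p = 0.0334). SAUR63, whose product promotes elongation of hypocotyls and stamen filaments (AT1G29440, 10304507 to 10305108), had 4.66, 3.47 and 2.16 FPKM against 0, 0.829 and 0.737 FPKM, and fell by 1.55 (SE 0.34, adjusted p = 0.0453). All of SAUR63 lies opposite AT1G29435, a gene listed at 0 in 5 libraries and at 0.109 FPKM in wild type replicate 3, and no source used here says whether the counting used strand. SAUR62, SAUR65 and SAUR67 had the same order of groups, as did 20.3% of all tested genes. Their limma adjusted p was 0.0854, 0.0797 and 0.0519, and they were described after their values were seen.

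Summed over SAUR61 to SAUR68, the level was 59.6, 33.6 and 28.1 FPKM in the wild-type libraries, against 0.496, 7.56 and 10.4 FPKM in EsANAC029-OE, from 1011, 540 and 447 reads against 10, 166 and 201. The groups were separate, and the wild-type mean of 40.4 ± 16.8 FPKM was 6.56 times that of 6.16 ± 5.11 FPKM in EsANAC029-OE (SD, n = 3 each). The sum had a log2 fold change of -2.90 with SE 0.78 (limma adjusted p = 0.0736), and without EsANAC029-OE replicate 1 the sum fell by 1.99 (SE 0.34, adjusted p = 0.0201). Of both tandem sums, limma called 0 and limma-voom 0, while limma gave both an unadjusted p under 0.05 (0.0146 for SAUR19 to SAUR24 and 0.00917 for SAUR61 to SAUR68). The cluster is less uniform than SAUR19 to SAUR24, with coding identities of 46.4% to 89.5%. A sum over its 5 most alike copies (SAUR62, SAUR63, SAUR64, SAUR66 and SAUR67), defined after the data were seen, had an adjusted p of 0.0630.

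**Figure D2:**
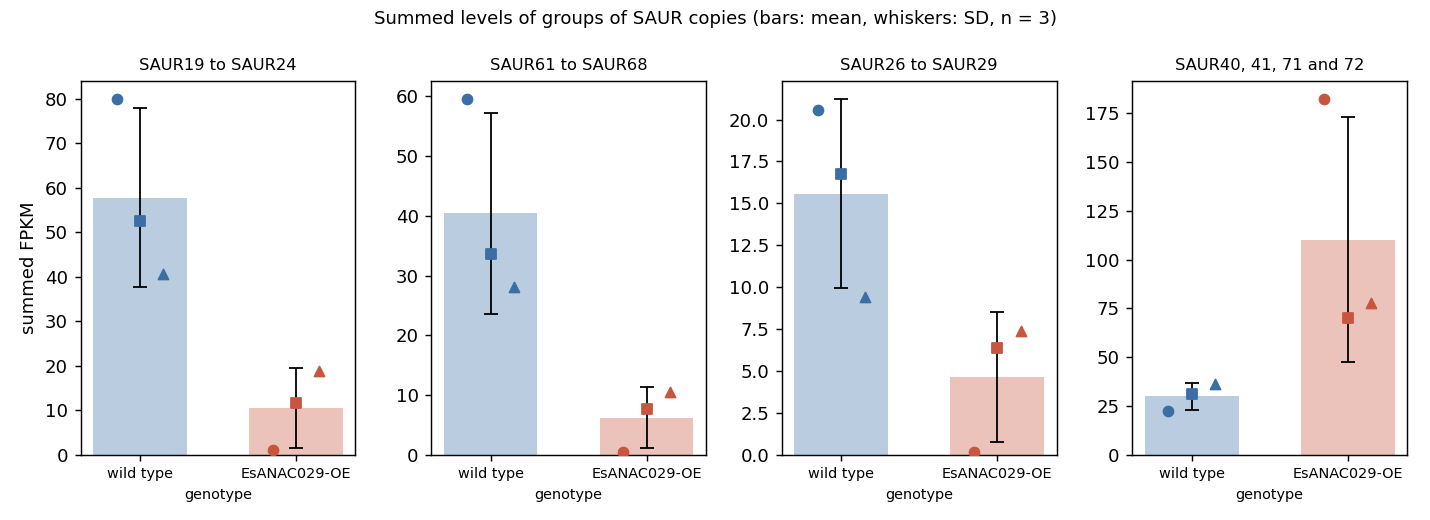
Summed FPKM (vertical axis, from 0, with a separate scale in each panel) of SAUR19 to SAUR24, SAUR61 to SAUR68, SAUR26 to SAUR29 and the group of SAUR40, SAUR41, SAUR71 and SAUR72 in wild type and EsANAC029-OE; bars are means, whiskers SD and points the 3 libraries. In the first 3 panels every wild-type point lies above every EsANAC029-OE point, with replicate 1 (circles) at both ends, and in the last panel the order is the opposite.

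SAUR26 to SAUR29, which promote growth at warm temperature, form a further cluster on chromosome 3. Their sum was 20.6, 16.7 and 9.43 FPKM in the wild-type libraries, against 0.180, 6.36 and 7.39 FPKM in EsANAC029-OE. The groups were separate, with a log2 fold change of -1.92 (SE 0.78, limma adjusted p = 0.170), and the sum was not called without EsANAC029-OE replicate 1 either (adjusted p = 0.0835). This sum was also defined after the data were seen.

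Light-related members on chromosome 4 varied widely between the EsANAC029-OE libraries, and none was called. SAUR50, which light induces in cotyledons, was at 45.2, 63.3 and 39.2 FPKM in the wild-type libraries, against 1.12, 18.8 and 31.3 FPKM in EsANAC029-OE (log2 fold change -2.15, SE 0.98, limma adjusted p = 0.213). SAUR14, also light-induced in cotyledons, was at 48.3, 20.9 and 13.9 FPKM against 1.05, 8.64 and 16.5 FPKM (-1.85, SE 0.85, adjusted p = 0.215). The groups were separate for SAUR50 and overlapped for SAUR14, and in both genes EsANAC029-OE replicate 1 was far below the other 5 libraries. SAUR16, of the same cluster as SAUR14 and named after its values were seen, was at 26.5, 15.5 and 11.2 FPKM against 3.82, 10.7 and 32.4 FPKM (log2 fold change -0.52, limma adjusted p = 0.667). Its groups overlapped, and EsANAC029-OE replicate 3 had its highest value. SAUR15, the first described Arabidopsis SAUR gene (SAUR-AC1), was at 5.63, 2.50 and 1.05 FPKM against 0.0563, 0.646 and 0.976 FPKM (-1.26, adjusted p = 0.146). Its highest EsANAC029-OE value lay just under its lowest wild-type value.

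SAUR72 showed the largest rise of the tested members on the log2(FPKM + 1) scale. That scale understates low members such as SAUR9, whose means were 0.589 and 5.33 FPKM, against 7.93 and 55.5 FPKM for SAUR72. SAUR72 (AT3G12830, chromosome 3, 4078651 to 4079627) had 3.74, 8.67 and 11.4 FPKM in the wild-type libraries, against 91.9, 33.7 and 41 FPKM in EsANAC029-OE, and it rose by 2.63 on the log2 scale (SE 0.50, limma adjusted p = 0.0334). Every EsANAC029-OE library lay well above every wild-type library, and replicate 1 had the highest value. SAUR30 (AT5G53590, chromosome 5, 21771811 to 21772794) had 6.00, 4.63 and 5.68 FPKM against 19.6, 16.8 and 12.9 FPKM and rose by 1.43 (SE 0.20, adjusted p = 0.0188). Its EsANAC029-OE values were close together, and its standard error was the smallest of the 7 called members. SAUR30 was called in 9 of 14 alternative analyses, SAUR72 and SAUR66 in 7 of 14, SAUR64, SAUR20 and SAUR21 in 6 of 14 and SAUR63 in 3 of 11.

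SAUR72 belongs to a clade with SAUR40, SAUR41 and SAUR71, of which SAUR41 promotes cell expansion. SAUR71 was at 14.8, 18.4 and 20.2 FPKM in the wild-type libraries, against 53.9, 29.8 and 32.3 FPKM in EsANAC029-OE (log2 fold change 1.04, SE 0.27, limma adjusted p = 0.0658). SAUR41 was at 3.96, 3.93 and 4.35 FPKM against 36.6, 6.74 and 4.38 FPKM (1.19, SE 0.70, adjusted p = 0.313). For SAUR41 the difference rested on EsANAC029-OE replicate 1, as replicate 3 was at the wild-type level. The summed level of the clade was 22.5, 31.0 and 36.0 FPKM in the wild-type libraries, against 182, 70.2 and 77.7 FPKM in EsANAC029-OE, an order that was the reverse of that of the tandem clusters.

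The senescence-related members differed in direction and neither was called. SAUR36, the promoter of leaf senescence, was at 0.383, 0.774 and 0.645 FPKM in the wild-type libraries, against 10.1, 2.48 and 1.02 FPKM in EsANAC029-OE (log2 fold change 1.43, SE 0.61, limma adjusted p = 0.186). Its values were ordered among the EsANAC029-OE libraries as the senescence marker sum was, with replicate 1 highest and replicate 3 lowest. The same order was found in SAUR9, SAUR30 and SAUR41, and in SAUR32 and SAUR35, whose groups overlapped. It is thus not particular to SAUR36. SAUR36 reached 1 FPKM only in EsANAC029-OE, so its passing the filter already needed a difference. SAUR49, which acts with the phosphatase SSPP (PP2C.D1) in leaf senescence, was at 8.49, 8.25 and 7.88 FPKM against 3.18, 5.16 and 6.52 FPKM (-0.67, SE 0.24, adjusted p = 0.138). Its phosphatase partner PP2C.D1 was at 17.7, 7.99 and 18.7 FPKM against 0.113, 4.73 and 28.1 FPKM, with overlapping groups.

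The other members with the highest levels did not pass the test. SAUR78, an interactor of ethylene receptors and the member with the highest mean, was at 53.9, 80.1 and 93.9 FPKM in the wild-type libraries, against 18.5, 22.7 and 59.6 FPKM in EsANAC029-OE (log2 fold change -1.30, SE 0.46, limma adjusted p = 0.132), and the groups overlapped through EsANAC029-OE replicate 3. SAUR59 was at 13.0, 10.9 and 17.9 FPKM against 74.6, 25.0 and 26.7 FPKM (1.37, SE 0.45, adjusted p = 0.111), with separate groups. SAUR32, which acts in the apical hook, was at 24.2, 14.9 and 17.4 FPKM against 25.9, 25.3 and 9.71 FPKM, and its log2 fold change (0.01, SE 0.40, adjusted p = 0.987) had a sign that changed with scaling. ADK2 was at 25.8, 24.6 and 24.9 FPKM against 17.6, 33.0 and 21.6 FPKM (-0.10, SE 0.24, adjusted p = 0.815), and this sign turned with library-size scaling. SAUR9, named after its values were seen, was at 0.213, 0.342 and 1.21 FPKM against 10.3, 4.29 and 1.42 FPKM (1.77, SE 0.58, adjusted p = 0.111).

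The direction of members differed with their position on the chromosomes. Of the 78 SAUR loci, 33 lie in 6 clusters of at least 3 SAUR loci whose neighbouring starts are within 20 kb, and 45 lie outside them. Among the 24 tested loci in clusters 5 fell and 0 rose, 18 were lower with separate groups and 0 higher, and the median log2 fold change was -1.69. Among the 16 tested loci outside, 2 rose and 0 fell, 1 was lower and 7 were higher with separate groups, and the median was 0.68. Over all tested genes 3.58% were called lower and 4.31% higher, 20.3% were lower and 19.6% higher with separate groups, and the median was -0.01. Without the 5 loci that passed the filter through 1 group alone, 4 of 20 tested loci in clusters fell and 14 were lower with separate groups, and 2 of 15 outside rose and 6 were higher. Cluster members share sequence and neighbourhood and are not independent, and no test of the difference was made.

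**Figure D3:**
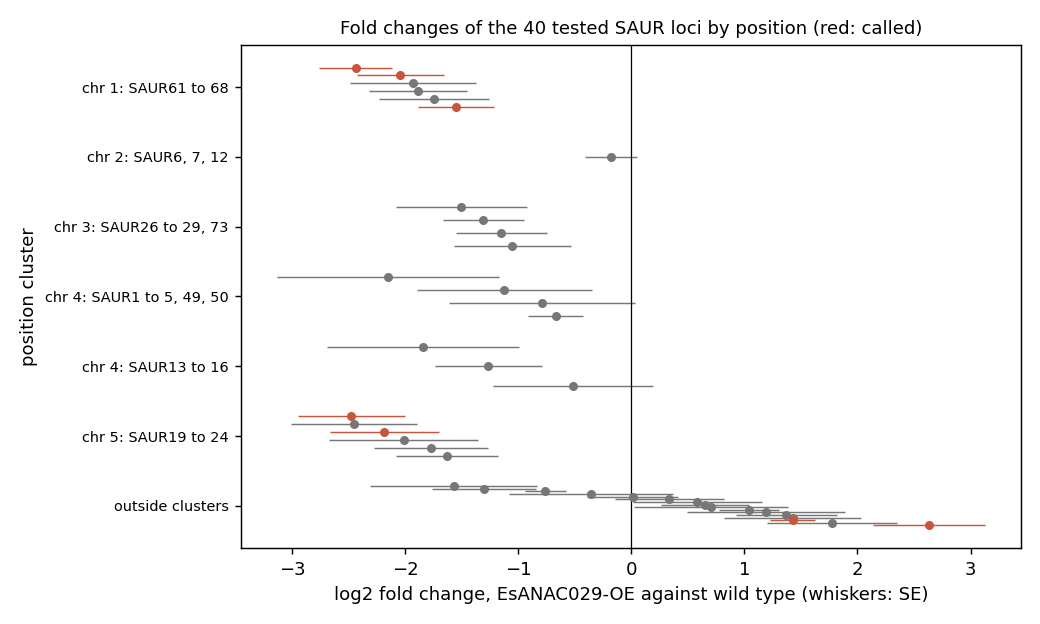
Log2 fold change (horizontal axis, EsANAC029-OE against wild type, whiskers SE) of each of the 40 tested SAUR loci, grouped by position cluster on the vertical axis; red marks the 7 called loci. All 24 loci in clusters lie left of 0, and the loci outside clusters lie on both sides, with SAUR72 farthest right at 2.63.

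The CACATG motif followed the same division. It was found on either strand in the 300 bases before the gene start of 31 of 78 SAUR loci (39.7%), against 3583 of 27443 protein-coding genes (13.1%). It was in 24 of the 33 clustered loci (72.7%) and in 7 of the 45 others (15.6%). The windows of SAUR14 and SAUR15, of SAUR27 and SAUR28 and of SAUR26 and SAUR73 overlap, so 1 site there can count for 2 loci. Of the 20 tested loci with the motif 4 fell, 0 rose and the median log2 fold change was -1.53, and of the 20 without it 1 fell, 2 rose and the median was -0.17 (3.58% of all tested genes were called lower and 4.31% higher). Without the loci that passed the filter through 1 group alone, 3 of 16 with the motif fell, and 1 of 19 without it fell and 2 rose. Within the clusters, however, the 6 tested loci without the motif had a median of -1.89 and the 18 with it of -1.59, so the lower levels there were not limited to genes that hold it. Outside the clusters the 2 tested loci with the motif had a median of 1.18 and the 14 without it of 0.68. As 18 of the 20 tested loci with the motif lie in clusters, motif and position cannot be told apart here.

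The other motifs searched on both strands were rarer in SAUR promoters or about as common as elsewhere. The auxin response element TGTCTC was in 7 of the 78 (8.97%, against 13.0% of all promoters) and its variant TGTCGG in 2 (2.56% against 4.91%). Of the 7 loci with TGTCTC, SAUR7 was not tested. SAUR15, SAUR20, SAUR22, SAUR62, SAUR66 and SAUR67 were each lower with separate groups (20.3% of all tested genes), and SAUR15 passed the filter through wild type alone. All 7 lie in position clusters, where 18 of 24 tested loci were lower in this way. The G-box CACGTG, a palindrome, was in 1, that of SAUR59 (1.28% against 7.09%). The brassinosteroid response elements CGTGTG and CGTGCG were in 4 (5.13% against 6.11%) and 2 (2.56% against 1.78%). A G-box followed by TG or CG also holds 1 of these last motifs. A match describes letters in these windows and is no evidence of a bound site.

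The summed level of the family differed less between the groups than that of its clusters. Over all 84 members it was 485, 409 and 388 FPKM in the wild-type libraries, against 386, 316 and 373 FPKM in EsANAC029-OE, a difference of means of -68.5 FPKM (two-sided exact permutation p = 0.1, the smallest that 3 against 3 libraries can give), which became 29.6 FPKM with library size alone as the scale. Over the 78 SAUR loci the difference was -67.0 FPKM (exact p = 0.2).

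The make-up of that sum differed between the groups. SAUR19 to SAUR24 made up 17.5%, 13.7% and 11.2% of the SAUR loci's summed FPKM in wild type and 0.262%, 4.12% and 5.36% in EsANAC029-OE. SAUR61 to SAUR68 made up 13.0%, 8.75% and 7.75% against 0.135%, 2.67% and 2.97%. The clade of SAUR40, SAUR41, SAUR71 and SAUR72 made up 4.91%, 8.08% and 9.93% in wild type and 49.5%, 24.8% and 22.1% in EsANAC029-OE. SAUR72 alone went from 0.817%, 2.26% and 3.14% to 24.9%, 11.9% and 11.7%. For each of these 4 shares the groups did not overlap (exact permutation p = 0.1, the smallest possible). Shares do not depend on the scale between libraries, and shares of 1 sum are not independent of each other.

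**Figure D4:**
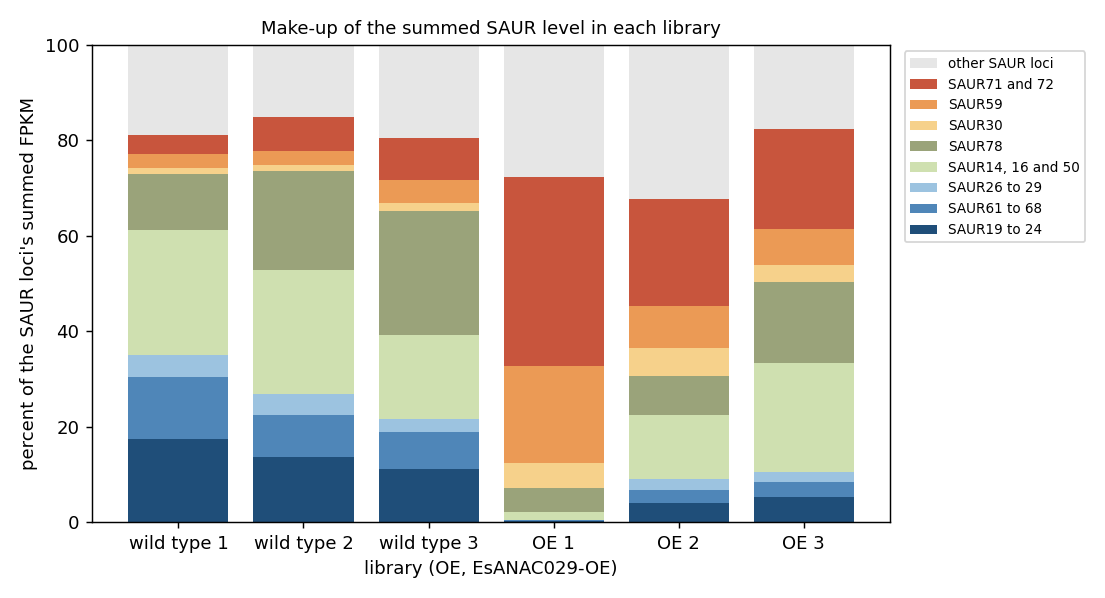
Percent of the summed FPKM of the 78 SAUR loci (vertical axis) that groups of loci made up in each library (horizontal axis). The parts of SAUR19 to SAUR24 (dark blue) and SAUR61 to SAUR68 (middle blue) shrink from wild type to EsANAC029-OE and nearly vanish in replicate 1. There SAUR71 and SAUR72 (red) and SAUR59 (orange) take the largest parts of the named groups, and other SAUR loci (gray) take more than SAUR59.

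Genes that act before or after SAUR proteins were counted against the same background (7.89% of all tested genes called, 3.58% lower and 4.31% higher). Over the 5 lists limma called 4 of 39 tested genes, a share near that background. The count was 9 without EsANAC029-OE replicate 1 (background 16.4%) and at most 1 without wild type replicate 1, 2 or 3 or EsANAC029-OE replicate 2.

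Of 11 growth-promoting regulators, all tested, 2 fell and 0 rose (median log2 fold change -0.57). PIF4, a bHLH factor that activates growth genes, was at 71, 80.6 and 70.8 FPKM in the wild-type libraries, against 23.0, 17.5 and 18.5 FPKM in EsANAC029-OE, and fell by 1.87 (SE 0.17, limma adjusted p = 0.00605). PIF5, its close relative, was at 45.5, 60.3 and 49.7 FPKM against 22.9, 9.95 and 14.3 FPKM, and fell by 1.73 (SE 0.30, adjusted p = 0.0297). Both were low in all 3 EsANAC029-OE libraries and, unlike most SAUR members, were not lowest in replicate 1. Neither BZR1, BES1 nor any of the 4 ARF genes of the list was called, nor were PIF1, PIF3 and PIF7. PIF7 (log2 fold change -1.31, limma adjusted p = 0.0536) and PIF1 (-0.68, adjusted p = 0.0846) were lower with separate groups (20.3% of all tested genes). PIF3 had overlapping groups and went the other way (0.28, adjusted p = 0.376).

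Of 14 auxin synthesis genes, 6 were tested, of which 1 fell and 0 rose (median -0.68). YUC8, a flavin monooxygenase that makes auxin, was at 4.79, 8.59 and 4.44 FPKM in the wild-type libraries, against 0.0251, 0.819 and 1.95 FPKM in EsANAC029-OE, and fell by 1.93 (SE 0.44, limma adjusted p = 0.0497). YUC9, with the highest mean of the list, was at 7.26, 6.21 and 6.68 FPKM against 0, 1.49 and 2.29 FPKM (-1.93, SE 0.44, adjusted p = 0.0513). Of the 6 auxin receptors TIR1 and AFB1 to AFB5, all tested, 0 were called by limma or limma-voom and 0 had an unadjusted p under 0.05 by limma (median -0.11), and TIR1, the one with the highest mean, was at 51.2, 38.4 and 46.0 FPKM against 23.0, 35.9 and 49.2 FPKM.

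Among the direct partners of SAUR proteins, 1 of 9 PP2C.D phosphatases rose and 0 fell (median -0.11). PP2C.D9 (AT5G06750) was at 7.71, 9.85 and 7.84 FPKM in the wild-type libraries, against 36.9, 23.0 and 18 FPKM in EsANAC029-OE, and rose by 1.46 (SE 0.28, limma adjusted p = 0.0346). PP2C.D6, the phosphatase with the highest mean, was at 70.5, 69.7 and 61.8 FPKM against 89.1, 55.1 and 67.8 FPKM, with overlapping groups. Of the 11 proton pump genes 7 were tested and 0 were called by limma or limma-voom, while 3 had an unadjusted p under 0.05 by limma (median -0.05). AHA1, the pump with the highest mean, was at 190, 178 and 207 FPKM against 243, 141 and 194 FPKM. Those 3, named after their values were seen, had separate groups and went both ways. AHA2 was at 46.8, 39.8 and 59.3 FPKM against 335, 97.7 and 104 FPKM (log2 fold change 1.63, SE 0.50, limma adjusted p = 0.0968). AHA11 was at 37.3, 27.2 and 35.7 FPKM against 0.873, 15.5 and 14.8 FPKM (-2.11, SE 0.84, adjusted p = 0.165), and AHA3 at 106, 125 and 123 FPKM against 98.2, 39.0 and 69.5 FPKM (-0.86, SE 0.34, adjusted p = 0.164). Without EsANAC029-OE replicate 1 all 3 were called by limma, AHA2 higher (adjusted p = 0.0230) and AHA11 and AHA3 lower (0.0176 and 0.0375). In that fit 6.85% of all tested genes were called higher and 9.51% lower. As the 3 were picked by their p-values in these same libraries, the calls are no separate support.

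**Figure D5:**
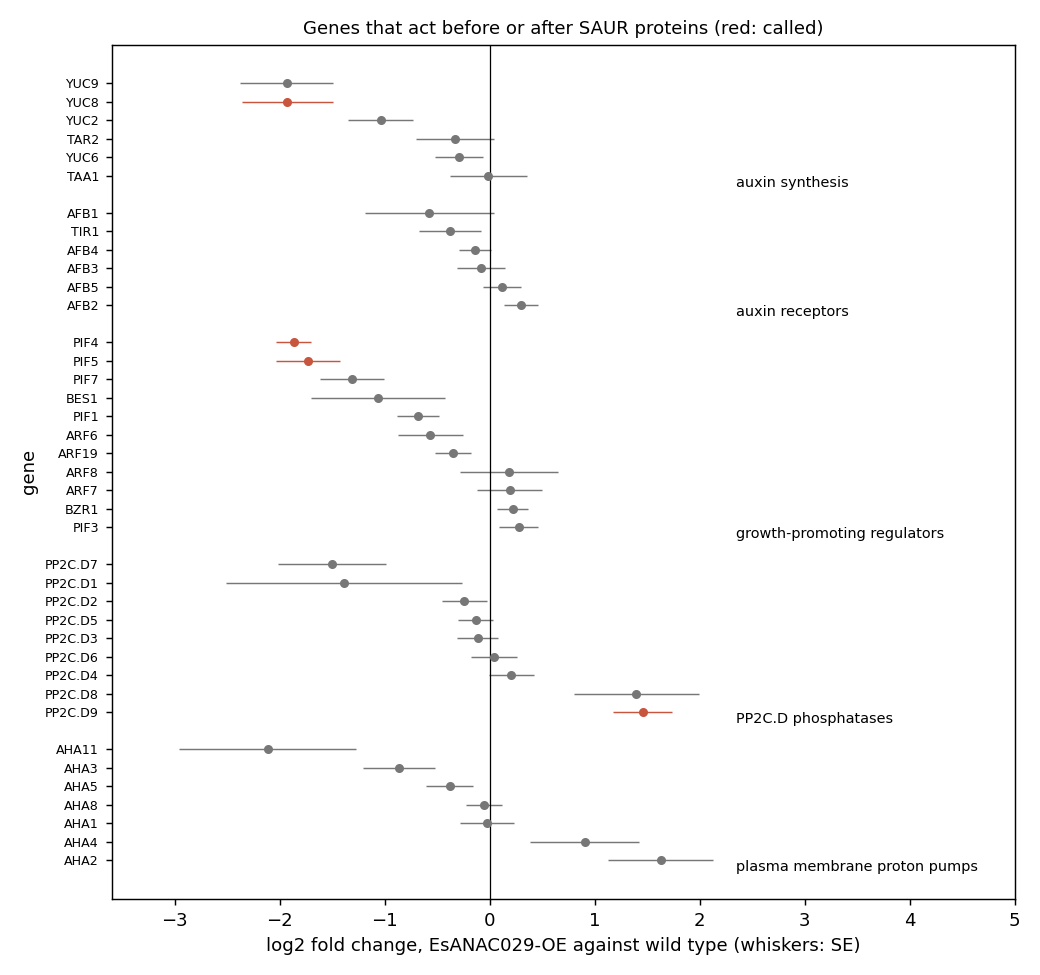
Log2 fold change (horizontal axis, EsANAC029-OE against wild type, whiskers SE) of the tested genes of auxin synthesis, auxin receptors, growth-promoting regulators, PP2C.D phosphatases and plasma membrane proton pumps; red marks called genes. YUC8, PIF4 and PIF5 are the called genes left of 0, and PP2C.D9 at 1.46 is the one right of it.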

How the data were processed

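The deposited table holds FPKM for 6 libraries of Arabidopsis seedlings, made by the authors from paired-end reads, with gene length in bases (another unit) beside them. The unit was worked out from the values, as the header gives none. The submitters' processing notes list edgeR, HISAT2, CASAVA 1.8 and the TAIR10 genome. What each tool did, which counter and annotation were used and whether strand was counted is not given in the sources used here. Multiplied by gene length, 100% of the deposited FPKM values came out as whole reads of their library (tolerance 1e-06), so reads could be recovered (19608819 to 21715274 per library). A floor of 3 reads covers counting error only and equals 0.138 to 0.153 CPM.

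Members and gene lists were chosen with earlier results of these data known. Genes that reached 1 FPKM in at least 3 libraries (17221) were fitted as log2(FPKM + 1) with limma 3.58.1 in R 4.3.3 (trended variance, two-sided), and Benjamini-Hochberg adjustment ran over all of them. Fold changes on this scale understate those of low genes. The test was first tried on simulated data. The design foresaw a count test for raw counts; as the values are FPKM, limma was used, and limma-voom on the recovered reads as an alternative. The named members are those called, the 8 with the highest mean, the members of a tandem sum that is called, and SAUR36, SAUR49, SAUR41, SAUR63, SAUR15 and SAUR19 to SAUR24; of each pathway list, the called genes and the one with the highest mean. The 2 tandem sums of SAUR19 to SAUR24 and SAUR61 to SAUR68 replaced their members in a fit of the whole table. All 84 members had the coordinates of RefSeq TAIR10.1, from which sequences were read (Biopython 1.88, MAFFT 7.526 alignment); promoters were compared with those of 27443 protein-coding genes. Alternatives were other scalings, filters, pseudocounts and thresholds, limma-voom, a replicate block and leaving out each library.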

Additional observations from a re-analysis of the deposited data

How the results depend on the processing

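The number of members called, 7 in the analysis reported (2 risen, 5 fallen), depended on the settings. It was 2 (1 risen, 1 fallen) with no filter, 2 (0 fallen) with a pseudocount of 0.1, 2 (0 fallen) by limma-voom and 16 (13 fallen) at an adjusted p under 0.1, where 3.29%, 7.18%, 4.77% and 16.7% of all genes were called, against 7.89% in the analysis reported. With library size alone 4 members rose. Leaving out 1 library at a time gave 0 to 15 called members, 0 to 6 risen and 0 to 9 fallen, with 0 called without wild type replicate 1, 2 or 3 or EsANAC029-OE replicate 2 (0.348% to 1.06% of all genes called), and 15 without EsANAC029-OE replicate 1 (16.4%). With fewer samples in a group the fit has fewer degrees of freedom, and beyond that the cause was not tested. Of the tandem sums, 0 were called, 2 at an adjusted p under 0.1 and 0 to 2 with 1 library left out. Of the pathway genes, 4 were called, 2 with no filter, 9 at an adjusted p under 0.1 and 0 to 9 with 1 library left out. The family sum differed by 29.6 FPKM in place of -68.5 with library size alone, and by -88.3 to -39.8 FPKM with 1 library left out. SAUR32 had a log2 fold change of -5.57e-05 with upper-quartile factors and of -0.21 to 0.45 with 1 library left out; ADK2 had 0.25 with library size alone, 0.0908 without EsANAC029-OE replicate 1 and down to -0.34 with 1 library left out. The other 20 members that the rule for named members picks, and both sums, kept their direction in each alternative run. SAUR9, SAUR16, SAUR62, SAUR65, SAUR67 and the members of SAUR26 to SAUR29 were not tracked one by one. Joining copies by protein identity was not run, as no protein table was used here; coding identity replaced it after the data were seen.

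Deviations of same-numbered libraries of the 2 groups correlated at -0.199, -0.0531 and -0.105 over tested genes. Those of differently numbered libraries ran from -0.318 to 0.36. These values cannot show whether the replicate number pairs samples, and the labels do not say. With the replicate number as a block, 16 genes of the whole table and 0 members were called (0 risen, 0 fallen), and 0 pathway genes were called.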
